A study of Saccharomyces cerevisiae with 4 samples.

Results

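The glycolysis, fermentation, glycerol and gluconeogenesis genes of Saccharomyces cerevisiae were examined on 4 arrays, each of which set total RNA of the abf1-1 mutant against total RNA of wild type cells. The members were a fixed list of 37 genes, and a member was any probe that the platform annotation maps to one of them. All 37 genes had a probe, 38 probes in all, out of 6226 probes that stood for 6189 features, 5539 of them named genes. The abf1-1 allele makes the essential DNA-binding protein Abf1 temperature-sensitive. Both the abf1-1 cells and the wild type cells grew in YPAD, a rich glucose medium, at 30 °C until the OD600 was 1.0 to 1.2. They then received an equal volume of YPAD at 42 °C and were collected after 45 min at 36 °C, so the heat step is shared by both strains. The labels give no further genotype, and no source used here ties the 4 arrays to separate cultures, so a p-value reflects how far these arrays differ and possibly no more than technical noise.

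Glycolysis splits hexoses into pyruvate, and in glucose-grown yeast pyruvate decarboxylase and alcohol dehydrogenase turn most of that pyruvate into ethanol. Gluconeogenesis runs the path backwards through a few enzymes of its own, whose genes are repressed by glucose. Most glycolytic enzymes are encoded by very active genes driven by Rap1 with Gcr1 and Gcr2, and Abf1 is known to bind upstream of PGK1. Many steps have isoenzymes, with 1 major gene and 1 or more minor genes that answer to other conditions.

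Each value below is a log ratio of the channels of 1 array, taken as log2 and centred on the median of that array. Which strain is the numerator of that ratio is unknown here, so signs are those of the deposited table, and no gene is called higher in the mutant. ABF1 itself had positive ratios between 0.99 and 1.96 on all 4 arrays, but abf1-1 alters the protein and deletes nothing, so the ABF1 signal is no test of the labels. Pearson's r over all features was 0.742 for arrays 1 and 3 and 0.864 for arrays 2 and 4, but only -0.22 to 0.052 between an array of one pair and an array of the other. Over the 37 genes it was 0.617 and 0.878 within the pairs and -0.181 to 0.138 between them. No label names a batch or a dye swap behind that split, and the pairs were recognised from the values themselves, so values are given for each array and for each pair.

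None of the 37 genes had a mean ratio that passed the test over the 4 arrays. Most of them, 81.1%, had a higher mean on arrays 1 and 3 than on arrays 2 and 4, against 53.9% of all features. That gap was only 0.01 for PYK2, and CDC19 was among the genes with the other direction, at -0.68. With limma, 0 of 37 genes had an adjusted p below 0.05, where 3.23% of all 6189 features did (1.37% positive and 1.86% negative). At an unadjusted p below 0.05 there were 7 of the 37 genes, or 18.9%, and 20.8% of all features. Mean ratios were positive for 13 genes, or 35.1%, and negative for 24, against 52.5% positive over all features. These means had a median of -0.08 for the 37 genes and 0.02 for all features. Without array 2 it was 0.04 for the 37 genes. The median was 0.16, -0.46, 0.13 and -0.10 on arrays 1 to 4, so it was positive on arrays 1 and 3 and negative on arrays 2 and 4. On array 2, 29 of the 37 genes, or 78.4%, had a negative ratio, against 50.1% of all features, and on array 1 these shares were 32.4% and 49.9%.

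**Figure D1:**
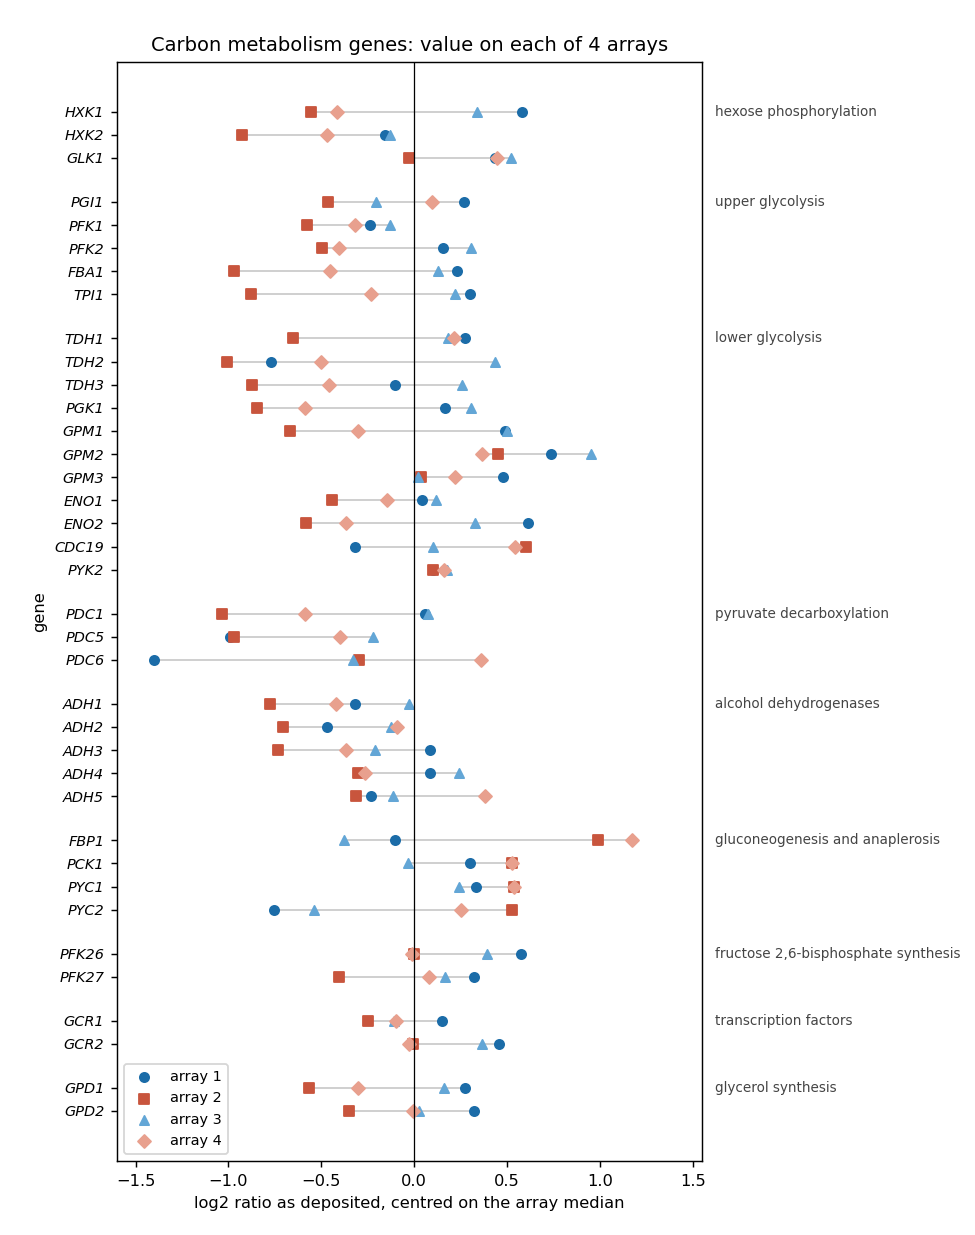
Log2 ratio of each of the 37 genes on each array, grouped by role, with 1 symbol per array and a grey line over the range of the 4 values. The symbols of arrays 1 and 3 lie right of those of arrays 2 and 4 for most glycolytic genes. For FBP1, PYC1, PYC2, PCK1, CDC19 and PDC6 they lie left of them.

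The first step of glycolysis, phosphorylation of glucose, is carried out by HXK2, the main hexokinase on glucose, and by HXK1 and GLK1, whose genes are glucose-repressed. HXK2 had -0.16, -0.93, -0.13 and -0.47 on arrays 1 to 4, negative on every array, with a mean of -0.42 ± 0.37 (SD, n = 4; limma adjusted p 0.229). GLK1, the glucokinase gene, had 0.44, -0.03, 0.52 and 0.45, which is positive on 3 arrays and close to 0 on array 2, with a mean of 0.34 ± 0.25 (SD, n = 4; limma adjusted p 0.22). GLK1 overlaps the gene YCL042W in the RefSeq annotation, and that gene's own probe had 0.25, 0.07, 0.34 and 0.59. HXK1 had 0.58 and 0.34 on arrays 1 and 3, against -0.55 and -0.41 on arrays 2 and 4. HXK1 thus changed sign with the pair of arrays, and its mean over the 4 arrays was -0.01 ± 0.56 (SD, n = 4).

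Within each array the ratio of GLK1 exceeded that of HXK2 by 0.59, 0.90, 0.65 and 0.92, a mean difference of 0.77 ± 0.17 (SD, n = 4). HXK1 exceeded HXK2 as well, by 0.74, 0.37, 0.47 and 0.06. Such a difference within an array does not depend on how the array was centred. The exact two-sided permutation test that turns the signs of the 4 differences gave p = 0.125 for both, the smallest value that 4 arrays allow. After Benjamini-Hochberg adjustment over the 21 gene pairs compared in this way, that permutation p was 0.525. The test takes the 4 arrays as independent, although the arrays fall into pairs, so its p-values may be too small. Of these 21 gene pairs, which set isoenzymes or opposing enzymes side by side, 5 had the same direction on all 4 arrays. Single ratios had 1 sign on all 4 arrays for 31.1% of all features, and no background of other gene pairs was drawn. The gene pairs were listed after the values had been seen, so the count is a description only.

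The genes of upper glycolysis all had negative mean ratios, 5 of 5, where 2940 of 6189 features did, and none passed the test. Without array 2 the means of PGI1, PFK2 and TPI1 were positive, at 0.05, 0.02 and 0.10. Those of PFK1 and FBA1 stayed negative, at -0.23 and -0.03. PFK1, which encodes the alpha subunit of phosphofructokinase, had -0.24, -0.58, -0.13 and -0.32, negative on every array, with a mean of -0.32 ± 0.19 (SD, n = 4; limma adjusted p 0.215). PFK2, which encodes the beta subunit of the same enzyme, had 0.16 and 0.31 on arrays 1 and 3, against -0.49 and -0.40 on arrays 2 and 4. The aldolase gene FBA1 had 0.23 and 0.13 on arrays 1 and 3, against -0.97 and -0.45 on arrays 2 and 4. Triosephosphate isomerase, encoded by TPI1, showed the same order, with 0.30 and 0.22 on arrays 1 and 3, against -0.88 and -0.23 on arrays 2 and 4. PFK2, FBA1 and TPI1 thus changed sign between the pairs, and PFK1 kept its sign with a larger size on arrays 2 and 4. The phosphoglucose isomerase gene PGI1 was mixed in sign, with 0.27, -0.46, -0.20 and 0.09.

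Lower glycolysis, from glyceraldehyde-3-phosphate to pyruvate, held 11 genes, 6 with positive and 5 with negative means. PGK1, the phosphoglycerate kinase gene, had 0.17 and 0.31 on arrays 1 and 3, against -0.85 and -0.59 on arrays 2 and 4. ENO2, the main enolase gene on glucose, had 0.61 and 0.33 on arrays 1 and 3, against -0.58 and -0.36 on arrays 2 and 4, and its mean was 0.00 ± 0.56 (SD, n = 4). Its paralog ENO1 moved less, with 0.04 and 0.12 on arrays 1 and 3, against -0.44 and -0.15 on arrays 2 and 4. These 3 genes were thus positive on arrays 1 and 3 and negative on arrays 2 and 4, as were 16.9% of all features.

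GPM1, which encodes the active phosphoglycerate mutase, was measured by 2 probes that can be set against each other. The first had 0.63, -0.66, 0.51 and -0.24 on arrays 1 to 4 and the second 0.35, -0.68, 0.48 and -0.37, so the probes differed by 0.28 at most while the gene ranged from -0.67 to 0.50. GPM2, a paralog thought to encode no active mutase, had 0.74, 0.45, 0.95 and 0.37, positive on every array. Its mean of 0.63 ± 0.27 (SD, n = 4), a 1.54-fold difference, had the smallest adjusted p of the 37 genes with limma, 0.0765, which missed the threshold. With the arrays left out in turn its mean lay between 0.52 and 0.71. The excess of GPM2 over GPM1 within an array was 0.25, 1.12, 0.45 and 0.67 (exact permutation p = 0.125, and 0.525 after adjustment). GPM3, the other such paralog, had 0.48, 0.03, 0.02 and 0.22. GPM2 lies beside GPD1 on chromosome IV in the RefSeq gene order. GPD1 was positive as well on arrays 1 and 3, but negative on arrays 2 and 4.

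The 3 glyceraldehyde-3-phosphate dehydrogenase genes are so alike that their probes may take up each other's transcripts, which was not tested because the sources used here hold no probe sequences. TDH3, the most active of them, had -0.10, -0.87, 0.26 and -0.46, and TDH2 had -0.77, -1.01, 0.44 and -0.50. For TDH2, arrays 1 and 3 stood 1 on each side of 0, so the pair did not hold together for this gene. TDH1, which is used more in slow-growing cells, had 0.28, -0.65, 0.18 and 0.21, with array 2 alone on the negative side. The ENO, PDC and ADH1 and ADH2 genes also have close paralogs.

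CDC19, the major pyruvate kinase gene, had -0.32, 0.60, 0.10 and 0.54 on arrays 1 to 4. It was positive on arrays 2 and 4, where PGK1, ENO2 and GPM1 were negative, and where GPM2, GPM3 and PYK2 were positive as well. Its mean was 0.23 ± 0.43 (SD, n = 4; limma adjusted p 0.529). The glucose-repressed paralog PYK2 was the most even of the 37 genes, at 0.10, 0.10, 0.18 and 0.16, with an SD of 0.04. Its mean of 0.13, a 1.10-fold difference, did not pass either (limma adjusted p 0.483).

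The fermentation genes had negative means, 3 of 3 for pyruvate decarboxylase and 5 of 5 for alcohol dehydrogenase, and none passed the test. Without array 2 the means of ADH4 and ADH5 were 0.02 and 0.01, while those of the other fermentation genes stayed negative. PDC5, a minor pyruvate decarboxylase gene that is induced when PDC1 is lost or thiamine is scarce, had -0.99, -0.97, -0.22 and -0.40. These values were negative on every array, and the pair means were similar, -0.61 over arrays 1 and 3 and -0.68 over arrays 2 and 4. The values within each pair differed, as PDC5 lay farther from 0 on arrays 1 and 2 than on arrays 3 and 4. Its mean over the 4 arrays, -0.65 ± 0.39 (SD, n = 4), was the largest of the 37 by size, a 1.56-fold difference with a 95% interval from -1.07 to -0.22 and a limma adjusted p of 0.116. PDC1, the major gene of that step, was near 0 on arrays 1 and 3, at 0.06 and 0.07, and negative on arrays 2 and 4, at -1.04 and -0.59. PDC6, a gene that is weakly used on glucose, had -1.40, -0.30, -0.33 and 0.36, the widest range among the 37 genes.

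ADH1, which makes ethanol from acetaldehyde, had -0.32, -0.78, -0.03 and -0.42, negative on every array, with a mean of -0.39 ± 0.31 (SD, n = 4; limma adjusted p 0.22). ADH2, the glucose-repressed enzyme gene that takes ethanol back to acetaldehyde, was negative on every array too, with -0.47, -0.71, -0.12 and -0.09. Its difference from ADH1 within an array was -0.15, 0.07, -0.09 and 0.32, with no common direction. The mitochondrial ADH3 had 0.09, -0.73, -0.21 and -0.37, so it was negative on 3 of 4 arrays. ADH4 and ADH5 had means of -0.06 and -0.07 and ratios of both signs. ADH4 exceeded ADH1 on every array, by 0.15 to 0.47.

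Genes of gluconeogenesis and pyruvate carboxylation took the opposite order, with all 4 more positive on arrays 2 and 4 than on arrays 1 and 3. FBP1, the fructose-1,6-bisphosphatase gene and a standard marker of glucose repression, had -0.10 and -0.38 on arrays 1 and 3, against 0.99 and 1.17 on arrays 2 and 4. The mean of arrays 1 and 3 minus that of arrays 2 and 4 was -1.32, the widest gap among the 37 genes, and its mean was 0.42 ± 0.77 (SD, n = 4; limma adjusted p 0.482). PCK1, which encodes phosphoenolpyruvate carboxykinase, had 0.30, 0.53, -0.03 and 0.53, positive on 3 arrays and near 0 on array 3. FBP1 and PFK1, whose enzymes oppose each other, differed by 0.14, 1.56, -0.25 and 1.49 on arrays 1 to 4, a large difference on arrays 2 and 4 alone.

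Pyruvate carboxylase makes oxaloacetate from pyruvate and is encoded by PYC1 and PYC2. PYC1 had 0.34, 0.54, 0.24 and 0.54, positive on every array, with a mean of 0.41 ± 0.15 (SD, n = 4), a 1.33-fold difference that missed the threshold (limma adjusted p 0.114). PYC2 had -0.76 and -0.54 on arrays 1 and 3, against 0.53 and 0.25 on arrays 2 and 4. The isoenzyme genes thus differed on arrays 1 and 3, by 1.09 and 0.78, and little on arrays 2 and 4, by 0.01 and 0.29. Over the 4 arrays the exact permutation p was 0.125, and 0.525 after adjustment.

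Among the regulators, PFK26 and PFK27 encode the kinases that make fructose 2,6-bisphosphate, an activator of phosphofructokinase. PFK26 had 0.57 and 0.39 on arrays 1 and 3, against 0.00 and -0.01 on arrays 2 and 4, and PFK27 had 0.32, -0.40, 0.17 and 0.08. GCR2, the partner of Gcr1 in activating glycolytic genes, was positive on arrays 1 and 3, at 0.45 and 0.37, and at 0.00 and -0.03 on arrays 2 and 4. GCR1, whose product binds glycolytic promoters beside Rap1, stayed within 0.25 of 0 on every array, with 0.15, -0.25, -0.11 and -0.10. PFK26 and GCR2 were thus away from 0 on arrays 1 and 3 and next to 0 on arrays 2 and 4.

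GPD1 and GPD2 encode the glycerol-3-phosphate dehydrogenases that draw carbon from glycolysis into glycerol, GPD1 under osmotic stress and GPD2 when oxygen is short. GPD1 had 0.27 and 0.16 on arrays 1 and 3, against -0.56 and -0.30 on arrays 2 and 4. GPD2 had 0.32, -0.35, 0.03 and 0.00, and neither passed (limma adjusted p 0.774 for GPD1 and 0.994 for GPD2).

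**Figure D2:**
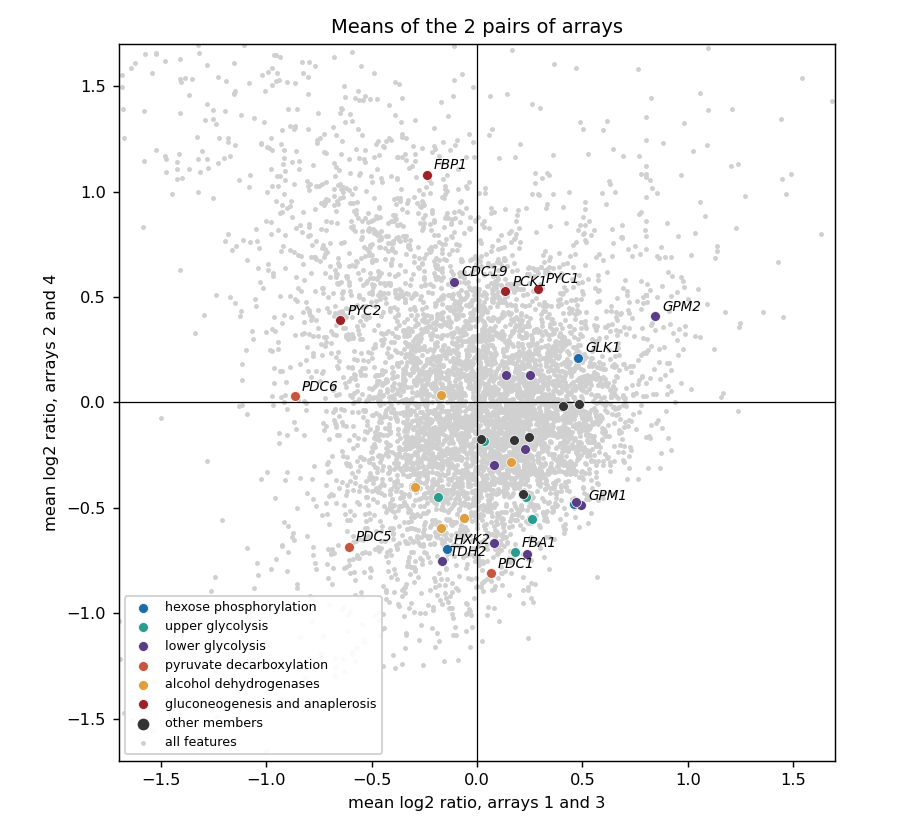
Mean log2 ratio on arrays 1 and 3 (horizontal) against that on arrays 2 and 4 (vertical), with the 37 genes coloured by role and all features in grey, of which 59 lie outside the axes. Most glycolytic and fermentation genes lie below 0 on the vertical axis, while FBP1, PYC1, PYC2, PCK1, CDC19 and GPM2 are among those above it.

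Of the 37 genes, 30, or 81.1%, had a higher mean on arrays 1 and 3 than on arrays 2 and 4, against 53.9% of all features, and the median gap was 0.42 for the 37 genes and 0.06 for all features. All 5 genes of upper glycolysis, 10 of 11 of lower glycolysis and 0 of 4 of gluconeogenesis and pyruvate carboxylation were on that side. Ratios positive on arrays 1 and 3 and negative on arrays 2 and 4 were found for 14 of 37 genes, or 37.8%, and for 16.9% of all features. Ratios of 1 sign on all 4 arrays were found for 9 of 37, or 24.3%, and for 31.1% of all features. Without centring the first of these counts was 11, since PFK26, GCR2 and GPD2, which had values close to 0, left that pattern, and 10 genes then had 1 sign on all 4 arrays. The 37 genes share arrays, and several share a regulator or a close paralog, so these shares describe the arrays and carry no test.

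**Figure D3:**
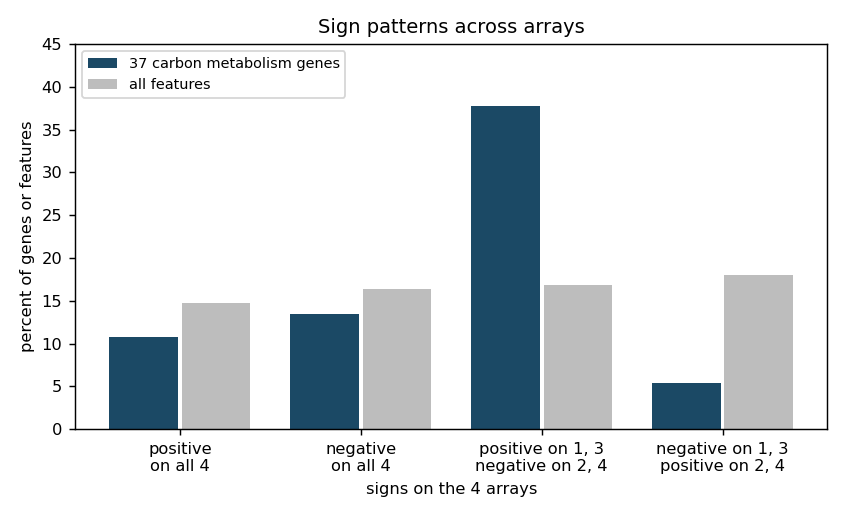
Percent of the 37 genes (dark bars) and of all features (grey bars) with each of 4 sign patterns across the arrays, after centring. The pattern that is positive on arrays 1 and 3 and negative on arrays 2 and 4 held 37.8% of the 37 genes and 16.9% of all features, and the opposite pattern 5.41% and 18.0%.

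Fitted alone, arrays 2 and 4 put 22 of the 37 genes past an adjusted p below 0.05 with limma, 59.5%, where 42.0% of all features passed. Of the 22, 16 were negative, or 43.2% of the 37 genes against 18.4% of all features, and 6 were positive, or 16.2% against 23.6%. The 6 positive genes were FBP1, CDC19, PYC1, PCK1, GPM2 and PYC2. Arrays 1 and 3 alone put 9 of the 37 past it, 24.3% against 33.3% of all features, 7 positive (18.9% against 15.5%) and 2 negative (5.41% against 17.7%). HXK1, ENO2 and GPM1 passed in both of these fits with opposite signs, as did PYC2. With a term for the pair in a fit of all 4 arrays, 11 of 37 passed, 29.7% against 32.7% of all features. Among them were GPM2 (limma adjusted p 0.00181), PYC1 (0.00683), PDC5 (0.0152) and HXK2 (0.0155), each of 1 sign on all arrays, but also FBP1 (0.0105), whose pairs disagree in sign. These fits take only the spread within a pair of arrays as their error. The pairs were chosen from the same values, so the p-values may be too small and do not single out any gene.

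The 95% limma intervals of the 4-array means lay within -1 and 1, a 2-fold difference either way, for 33 of the 37 genes, or 89.2%, and for 87.0% of all features. The exceptions were PDC5, PDC6 and TDH2 at the negative end and FBP1 at the positive end. These intervals take the 4 arrays as independent, although the arrays fall into pairs, and they may be too narrow.

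**Figure D4:**
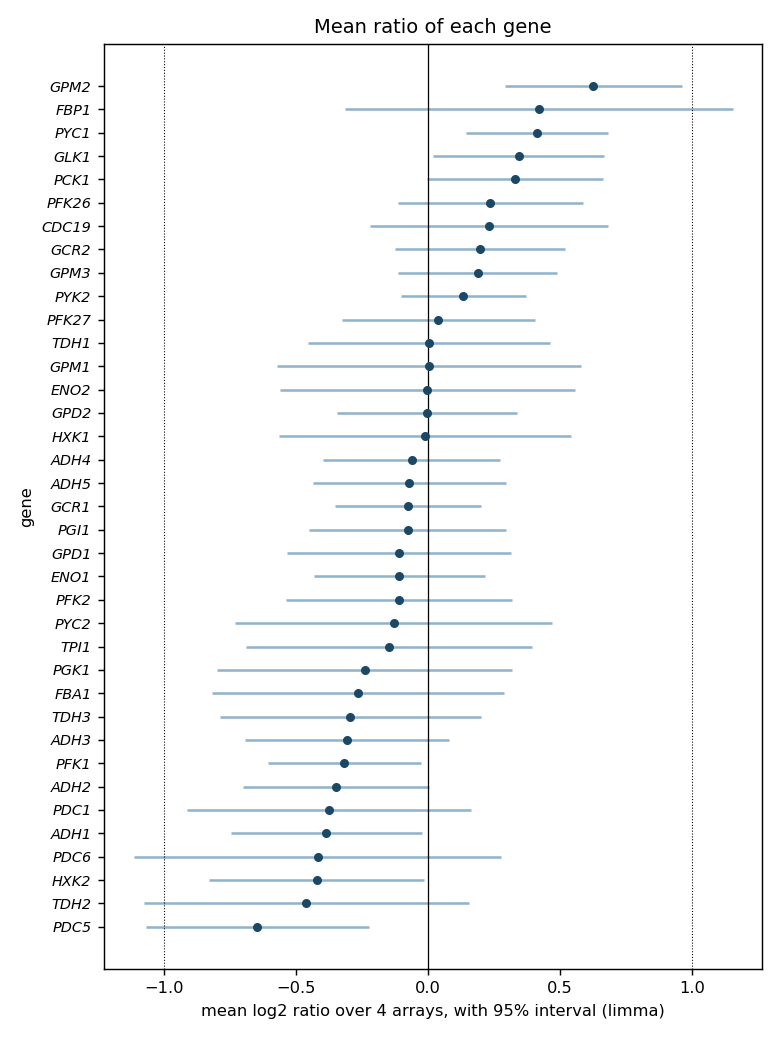
Mean log2 ratio over the 4 arrays of each of the 37 genes, sorted by value, with limma's 95% interval as the bar and dotted lines at -1 and 1. GPM2 at 0.63 and PDC5 at -0.65 lie farthest from 0, and most intervals include 0.

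In 5 lists of neighbouring carbon pathways, 69 genes in all and each with a probe, 4 genes, or 5.8%, passed the 4-array test, against 3.23% of all features. In the pentose phosphate pathway 2 of 11 genes passed, the transaldolase gene TAL1 at -0.76 ± 0.16 (SD, n = 4; limma adjusted p 0.0319) and its paralog NQM1 at 0.94 ± 0.26 (limma adjusted p 0.0319), in opposite directions. TAL1 had -0.86, -0.73, -0.90 and -0.55 and NQM1 had 0.98, 0.72, 1.29 and 0.76, so both kept their sign in both pairs of arrays. The aldehyde dehydrogenase gene ALD3 was the 1 of 14 genes of acetate use and the glyoxylate cycle that passed. Among 10 genes of glycerol release, uptake and breakdown, GUT2, the mitochondrial glycerol-3-phosphate dehydrogenase gene, passed with 0.89, 0.74, 0.92 and 0.49 (limma adjusted p 0.0372). With limma no gene passed among the 17 of trehalose and glycogen or the 17 regulators of glucose signalling, where 7 (41.2%) and 5 (29.4%) had an unadjusted p below 0.05, against 20.8% of all features. A higher mean on arrays 1 and 3 than on arrays 2 and 4 was found for 81.1% of the 37 genes, with a median gap of 0.42, and for 81.8% of the pentose phosphate genes, with a median gap of 0.39. The same share was 70.6% for trehalose and glycogen (median gap 0.09), 64.3% for acetate use and the glyoxylate cycle (0.10), 60.0% for glycerol release, uptake and breakdown (0.33) and 52.9% for glucose signalling (0.00). Over all features it was 53.9%, with a median gap of 0.06.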

How the data were processed

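The authors deposited log ratios of the channels of each array, 1 for every probe, read here as log2 since they run from -4.30 to 2.67 around 0. How spots were scanned, corrected for background and normalized, which dye each strain had, the log base and the numerator were not given in the sources used here. With another base all ratios would change by 1 factor, and the tests against 0 would not. Column medians lay between -0.03 and 0.03, and 0 values were missing. The table holds no intensities, and precision is set by having 4 arrays. The platform annotation named 1 gene for 5576 probes and none for 650. RefSeq R64 was used for names and gene order only.

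Array medians were subtracted, and probes that share a gene were averaged. Ratios were tested against 0 with lmFit and eBayes of limma 3.58.1 (R 4.3.3), two-sided, with Benjamini-Hochberg adjustment over 6189 features. The code was run on simulated arrays that were independent of each other, with no SD above the median SD of the features. The real arrays fall into pairs, so that run does not show how often the test errs on them. Isoenzyme differences were tested by exact permutation (scipy 1.17.1, Python 3.11.15) over gene pairs listed after the values had been seen. Promoter motifs and protein identity were planned but not analysed here. The members, the lists and the pairs of arrays were chosen with earlier results of these data known. The rule for genes given with all values took those past the threshold, the 8 largest means of 1 sign on all arrays, the 6 widest gaps between pairs and the isoenzyme families. FBA1, TPI1, PGI1, PCK1, GCR1 and GCR2 were added after their values had been seen, so that every role was shown. Other settings were no centring, a common spread, quantile normalization, array weights, robust eBayes, single probes, values shared by 10 or more probes set to missing, an adjusted p below 0.01, each array left out, a pair term and each pair alone.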

Additional observations from a re-analysis of the deposited data

Results flagged for a closer look

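For 2 of the 37 genes 1 array stood apart from the other 3, with a gap to the nearest value, as a share of the whole range, above Dixon's 95% critical value for 4 values. GLK1 had -0.026 on array 2 (0.01 before centring), a gap of 0.85 of its range, while its other values lay between 0.44 and 0.52. TDH1 had -0.65 on array 2, a gap of 0.90 of its range, while its other values lay between 0.18 and 0.28. Chance flags about 1 in 20 groups of independent values, and 2 of 37 is close to that rate. The arrays fall into pairs and both flags lie on array 2, so the rate may not apply here.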

How the results depend on the processing

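The count of 0 of 37 genes was the same with ratios not centred, a common spread, quantile normalization and array weights. Robust eBayes, single probes and shared values set to missing left it at 0 too. It was also 0 at an adjusted p below 0.01 and with each array left out (0 to 0). The stricter cut could give no other count, and no feature at all passed without array 1, 3 or 4. Across these settings the smallest limma adjusted p among the 37 genes was 0.0653 to 0.268. The count became 11 with the pair term, 9 with arrays 1 and 3 alone, and 22 with arrays 2 and 4 alone. The number of all features past the threshold, 200, became 98 with quantile normalization, 2 at an adjusted p below 0.01, 0 to 22 with an array left out, 2021 with the pair term, 2059 with arrays 1 and 3 alone, and 2602 with arrays 2 and 4 alone. Leaving out array 1, 3 or 4 gave 0 (limma), where the unadjusted p was below 0.05 for 898, 1066 and 752 features; leaving out array 2 gave 22. Against the 4-array mean, HXK1 (0.46) and ENO2 (0.47) passed with the other sign on arrays 1 and 3, and GPM1 (-0.49) and PYC2 (0.39) did so with arrays 2 and 4. The 4-array means of HXK1, ENO2 and GPM1 were -0.0119, -0.0019 and 0.0031, too near 0 for their sign to mean much. For the shift of the 37 genes with the pair of arrays, the cause was not tested.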
